A study of Mus musculus with 8 samples.

Results

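The Wnt ligand, receptor and inhibitor genes are 47 of 20661 autosomal protein-coding mouse genes, and their CHD4 binding sites were compared between TBX5 KO and control atria. The members are the autosomal protein-coding genes whose symbols begin with Wnt, Fzd, Sfrp or Dkk and a digit, together with Lrp5, Lrp6, Axin1, Axin2, Ctnnb1, Apc, Tcf7, Tcf7l1, Tcf7l2 and Lef1. Their regions, defined as the gene body plus 10 kb on each side, held 383 of the 95640 CHD4 sites that fell in a gene region and of the 121267 sites in all. CHD4 is the ATPase of NuRD, a complex that remodels chromatin. TBX5 belongs to the T-box transcription factors and is needed in the atria. CHD4 ChIP-seq was done on dissected, flash-frozen right and left atria, with 2 libraries titled TBX5 KO and 2 titled control. All mice, controls included, carried the TBX5 flox/flox alleles and were injected on postnatal day 2 with an AAV9 vector. The vector carried Nppa-Cre for the knockout and Nppa-EGFP for the control, and Nppa sequence drives expression in atrial cardiomyocytes. The age at dissection and whether libraries came from separate or pooled animals are not stated, so the spread between libraries may be technical. Titles were used to assign libraries to groups. In the labels for genotype and treatment the assignment is reversed, and the injection text calls the Cre mice a knockout of CHD4 and not of TBX5, so each direction given here depends on the titles. The tissue is labelled as mixed cells, and a CHD4 peak at a marker gene does not measure its expression, so neither the cell types nor the deletion could be checked. Fewer bound cells and less CHD4 per cell cannot be told apart in such tissue.

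Wnt proteins are secreted ligands that bind a Frizzled receptor together with the co-receptor LRP5 or LRP6. Without ligand, a destruction complex built on AXIN1, AXIN2 and APC marks beta-catenin, the product of Ctnnb1, for degradation. With ligand, beta-catenin accumulates and joins the TCF and LEF factors at DNA, while SFRP and DKK proteins act outside the cell, the classical DKK proteins on LRP5 and LRP6 and the SFRP proteins on the ligands. In the heart the pathway is best known for its part in development and in the response to injury.

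The strongest member site lay at the start of Ctnnb1 and was called in every library, while the start of Sfrp5 had no site in the TBX5 KO libraries and a site in both control libraries. Promoter windows from 250 bases before to 50 bases after a start were taken from RefSeq for assembly GRCm38.p6, which is the assembly behind build mm10, and 31 of the 47 members had 1 or more, 40 windows in all. Ctnnb1, Tcf7, Tcf7l2, Wnt5b, Wnt11 and Lef1 have more than 1 window each. Some of these overlap or lie in the same site, so windows are not separate members. The Ctnnb1, Tcf7l2 and Wnt5b windows printed below are each 1 of those of their gene. Of the 40 windows, 22 (55.0%) overlapped a site called in all 4 libraries, against 42.8% of the 31396 autosomal windows. The Sfrp5 window was the 1 (2.50%) that overlapped a site of both control libraries that no TBX5 KO library had, against 1.08% of all windows. A further 13 member windows (32.5%) overlapped no site, against 51.1% of all windows. The 6 windows printed here show the contrast: the Ctnnb1, Tcf7l2, Fzd1 and Wnt5b windows lay in sites of all 4 libraries, the Sfrp5 window lay in a site of the control libraries alone, and the GC-rich Fzd10 window had no site. Capitals mark matches on either strand to 4 short motifs. AGGTGT stands for T-box factors and CTTTGAT for TCF and LEF factors. AGATAA stands for the GATA family. For TEAD factors the letters are GGAATG. Matches in these windows did not share a base.
Ctnnb1 promoter window, chr9:120933150-120933449, plus strand: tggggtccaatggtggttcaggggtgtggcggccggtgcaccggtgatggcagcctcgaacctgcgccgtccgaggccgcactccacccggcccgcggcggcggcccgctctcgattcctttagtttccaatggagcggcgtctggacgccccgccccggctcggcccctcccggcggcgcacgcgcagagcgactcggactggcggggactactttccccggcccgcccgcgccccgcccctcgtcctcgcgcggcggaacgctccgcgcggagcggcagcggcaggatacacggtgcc
Tcf7l2 promoter window, chr19:55741560-55741859, plus strand: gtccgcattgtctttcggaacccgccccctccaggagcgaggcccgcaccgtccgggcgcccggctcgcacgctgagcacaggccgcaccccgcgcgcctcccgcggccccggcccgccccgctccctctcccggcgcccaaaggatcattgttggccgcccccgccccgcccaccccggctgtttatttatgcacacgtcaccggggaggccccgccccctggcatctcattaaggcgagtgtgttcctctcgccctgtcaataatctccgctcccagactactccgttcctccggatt
Fzd1 promoter window, chr5:4758167-4758466, minus strand: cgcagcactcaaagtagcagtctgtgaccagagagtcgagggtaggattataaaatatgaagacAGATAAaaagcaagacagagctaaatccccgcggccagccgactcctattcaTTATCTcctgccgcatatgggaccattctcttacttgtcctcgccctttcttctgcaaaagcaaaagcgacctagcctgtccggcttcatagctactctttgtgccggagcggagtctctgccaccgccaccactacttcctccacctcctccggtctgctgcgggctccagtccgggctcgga
Wnt5b promoter window, chr6:119449337-119449636, minus strand: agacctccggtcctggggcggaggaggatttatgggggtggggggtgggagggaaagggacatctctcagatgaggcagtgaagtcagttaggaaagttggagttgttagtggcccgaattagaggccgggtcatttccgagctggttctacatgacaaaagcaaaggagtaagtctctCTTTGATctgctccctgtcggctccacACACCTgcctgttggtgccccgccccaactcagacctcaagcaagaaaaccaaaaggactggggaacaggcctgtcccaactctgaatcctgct
Sfrp5 promoter window, chr19:42202203-42202502, minus strand: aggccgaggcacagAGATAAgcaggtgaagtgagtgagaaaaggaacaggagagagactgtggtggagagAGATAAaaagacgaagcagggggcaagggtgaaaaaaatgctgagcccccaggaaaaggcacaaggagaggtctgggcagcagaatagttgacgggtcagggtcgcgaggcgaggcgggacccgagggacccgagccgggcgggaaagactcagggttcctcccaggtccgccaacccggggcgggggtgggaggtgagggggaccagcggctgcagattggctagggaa
Fzd10 promoter window, chr5:128600856-128601155, plus strand: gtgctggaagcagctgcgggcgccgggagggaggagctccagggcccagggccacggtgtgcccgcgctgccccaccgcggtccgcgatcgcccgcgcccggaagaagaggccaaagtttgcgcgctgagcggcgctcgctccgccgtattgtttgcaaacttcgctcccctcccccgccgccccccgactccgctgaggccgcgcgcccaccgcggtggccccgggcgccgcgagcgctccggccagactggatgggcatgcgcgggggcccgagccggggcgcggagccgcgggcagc

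The Sfrp5 window held 2 AGATAA matches, the Fzd1 window 1 on each strand, and the Wnt5b window 1 CTTTGAT match and 1 T-box match on the other strand. No match to any of the 4 was in the printed Ctnnb1, Tcf7l2 and Fzd10 windows. Over the 40 member windows the T-box letters were in 4 (10%), against 13.8% of all autosomal windows, and the GATA letters were in 5 (12.5%), against 11.2%. The TCF/LEF letters were in 2 windows (5%), against 3.76%, and the TEAD letters in 1 (2.50%), against 14.6%. A match is a description of these windows alone. Member windows in sites of all 4 libraries had a median GC content of 73.8%, and member windows with no site had 65.7%. The same medians over all autosomal windows were 61.7% and 47.3%.

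CHD4 peaks were fewer throughout the genome in the TBX5 KO libraries, with 61173 and 69557 peaks, against 99924 and 91520 peaks in control libraries. Whether the ChIP itself worked equally well in the libraries of both groups was not tested, and peak lists alone cannot show it. A peak is an interval the authors' peak caller set at a −log10 q of about 1.3 or more, and a site is the merge of peaks that overlap by at least 1 bp over the 4 lists. The pileup is the number of fragments stacked at a peak's summit, recovered from the deposited fold and −log10 p. The genome background, the lowest local background of a list, was 10.7 and 13.4 fragments in TBX5 KO libraries, against 10.1 and 10.3 in control libraries. The lowest called pileup at that background was 22 and 26 fragments in TBX5 KO libraries, against 21 and 21 in control libraries, and a site below these values has no call. With 2 libraries in each group the smallest two-sided exact permutation p is 0.333. That exact test could therefore pass no conventional threshold. No model-based test was run, and the counts below are set beside those of all gene regions. Intervals are Wilson 95% intervals that cover counting error only.

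Fewer sites were called at the Wnt genes in TBX5 KO libraries, in the same proportion as over all gene regions. Their regions held 149 and 194 called sites in TBX5 KO libraries, against 288 and 263 in control libraries, with means of 171.5 ± 31.8 and 275.5 ± 17.7 (SD, n = 2 each). The TBX5 KO to control ratio was 0.623 for the Wnt genes and 0.623 for all gene regions. Of the 205 member sites called in both control libraries, 45 (22.0%, interval 16.8% to 28.1%) were called in neither TBX5 KO library, and these are named control-only. The share over all autosomal gene regions was 24.2%. Another 44 member sites (21.5%) were called in 1 TBX5 KO library, against 18.5% over all gene regions, and 116 (56.6%) in both, against 57.3%. Of the 124 member sites called in both TBX5 KO libraries, 3 (2.42%, interval 0.826% to 6.87%) were called in neither control library, against 1.76% over all gene regions.

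At the level of genes, 41 of the 47 members had a site, and 14 of the 39 with a site in both control libraries had a control-only one (35.9%), against 45.7% of all such genes. Both TBX5 KO libraries had fewer sites than either control library at 15 of the 41 members (36.6%), against 42.2% of all genes with a site. No member had more sites in both TBX5 KO libraries, against 0.927% of all genes. The 15 were Wnt5b, Wnt8a, Wnt9a, Fzd4, Lrp5, Lrp6, Dkk3, Sfrp4, Sfrp5, Ctnnb1, Apc, Axin2, Tcf7l1, Tcf7l2 and Lef1. With all lists shortened to 61173 peaks, the strongest of each, 19 of 140 sites were control-only (13.6%), against 13.4% over all gene regions. With these lists 3 members had fewer sites in both TBX5 KO libraries. The share of all genes was not computed for these lists, so whether this drop is particular to the members is not known. Leaving out a library asks for fewer calls to coincide, and the control-only count was then 78 without TBX5 KO replicate 2, 104 without control replicate 1 and 124 without control replicate 2. The shares were 37.7%, 37.5% and 40.5%, against 36.7%, 36.9% and 40.9% over all gene regions.

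The classes of the pathway had different shares of control-only sites. Control-only sites were 11 of 22 at the secreted inhibitors (50%) and 10 of 27 at beta-catenin and its destruction complex (37.0%). They were 8 of 28 at the LRP co-receptors (28.6%), 11 of 62 at the TCF/LEF factors (17.7%), 4 of 47 at the Wnt ligands (8.51%) and 1 of 19 at the Frizzled receptors (5.26%). No site belonged to more than 1 class. The 3 members with the most control-only sites, Dkk3, Ctnnb1 and Lrp6, held 22 of the 45, and without them the share was 23 of 163 (14.1%). They were left out because of those sites, so a lower share follows from the choice. It cannot be set against the 24.2% over all gene regions, which keeps its own genes with the most such sites. With the body plus 50 kb the 6 shares lay between 17.3% and 36.4%, against 24.2% over all gene regions. These differences between classes were not tested.

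**Figure D1:**
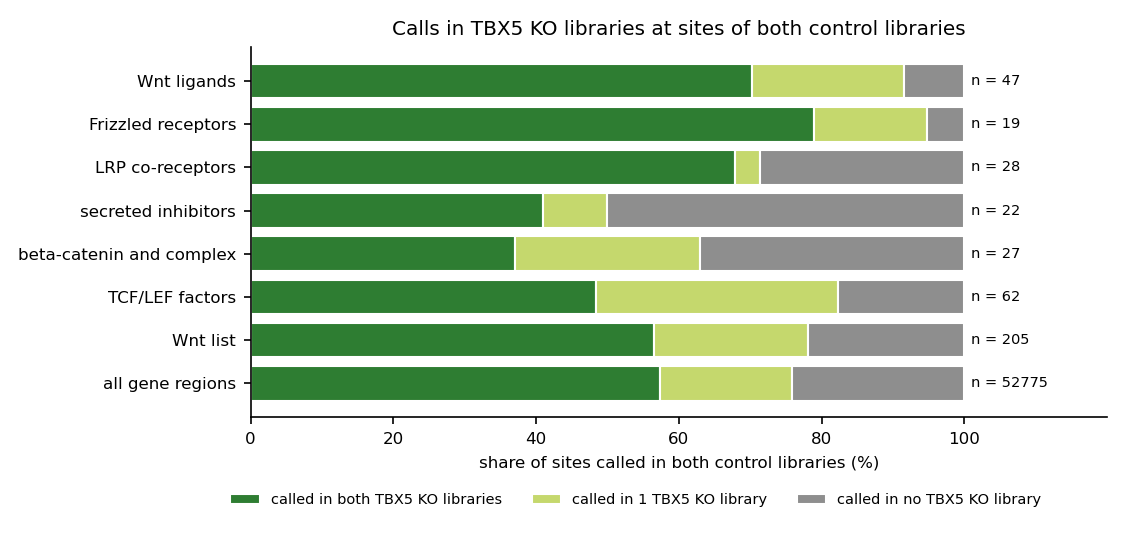
Sites called in both control libraries, split by the number of TBX5 KO libraries in which they were called (horizontal axis, % of the sites; n, number of sites). The grey control-only part is 50% at the secreted inhibitors and 5.26% at the Frizzled receptors, beside 22.0% for the Wnt list and 24.2% for all gene regions.

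Most CHD4 sites of the Wnt ligand genes were called in both groups. The 19 ligand genes held 87 sites, with 44 and 56 called in TBX5 KO libraries, against 66 and 59 in control libraries, and the ranges came close without overlapping. Of the 47 sites of both control libraries, 4 were control-only (8.51%, interval 3.36% to 19.9%), against 24.2% over all gene regions. In all 4 libraries 33 were called (70.2%), against 57.3% over all gene regions. In the wider region of the body plus 50 kb the control-only count was 26 of 124 (21.0%), by nearest gene it was 10 of 69 (14.5%), and at −log10 q of at least 5 it was 7 of 33 (21.2%). Over all gene regions these shares were 24.2%, 24.8% and 27.0%. Wnt5b, Wnt8a and Wnt9a, 3 of the 17 ligands with a site, had fewer sites in both TBX5 KO libraries than in either control library, against 42.2% of all genes with a site. Wnt3 and Wnt7a had no site in any library.

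Wnt5b encodes a ligand best known for signalling without beta-catenin and had the most sites of the ligands. It had 11 and 13 sites in TBX5 KO libraries, against 15 and 16 in control libraries. Its 2 control-only sites were both inside the gene, and the stronger, chr6:119508840-119509697, had no call in TBX5 KO libraries, against pileups of 35 and 51 in control libraries. Of its 14 sites of both control libraries, 10 were called in all 4. One of these holds the Wnt5b window printed above, with pileups of 43 and 53 in TBX5 KO libraries, against 70 and 53 in control libraries. Relative to background, the TBX5 KO level there was 0.660 of the control level.

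Wnt5a, a ligand of the same kind, showed no control-only site. It had 6 and 5 sites in TBX5 KO libraries, against 7 and 5 in control libraries, and all 5 of its sites of both control libraries were called in all 4. Its strongest site lay outside the gene, at chr14:28532119-28534067, with pileups of 65 and 65 in TBX5 KO libraries, against 133 and 149 in control libraries. The groups did not overlap there, and the TBX5 KO level over background was 0.395 of the control level, the second lowest of the 116 member sites called in all 4 libraries. At the Wnt5a site over the lower-coordinate gene end the pileups were 43 and 47 in TBX5 KO libraries, against 54 and 57 in control libraries.

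Wnt4, a ligand with roles in kidney and gonad development, had 6 and 5 sites in TBX5 KO libraries, against 5 and 6 in control libraries. None of its 5 sites of both control libraries was control-only, 2 were called in all 4 and 3 in 1 TBX5 KO library. Wnt11, a ligand of heart development, had 4 and 5 sites in TBX5 KO libraries, against 5 and 3 in control libraries. It held a site called in both TBX5 KO libraries alone, at chr7:98856960-98857401, with pileups of 24 and 34, close to the lowest callable values of 22 and 26. Wnt9a had 2 and 2 sites in TBX5 KO libraries, against 5 and 5 in control libraries, with 1 control-only site of 29 and 27 fragments in control libraries. Wnt8a had a single site, called in control libraries alone with 47 and 39 fragments. Its folds over local background in the authors' lists were 2.78 and 2.19, beside medians of 3.06 and 3.02 over all peaks of the control libraries. The other ligands with a site had 1 to 8 each and no control-only site. Neighbouring ligand genes shared sites, as at Wnt1 and Wnt10b, Wnt6 and Wnt10a, and Wnt3a and Wnt9a.

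**Figure D2:**
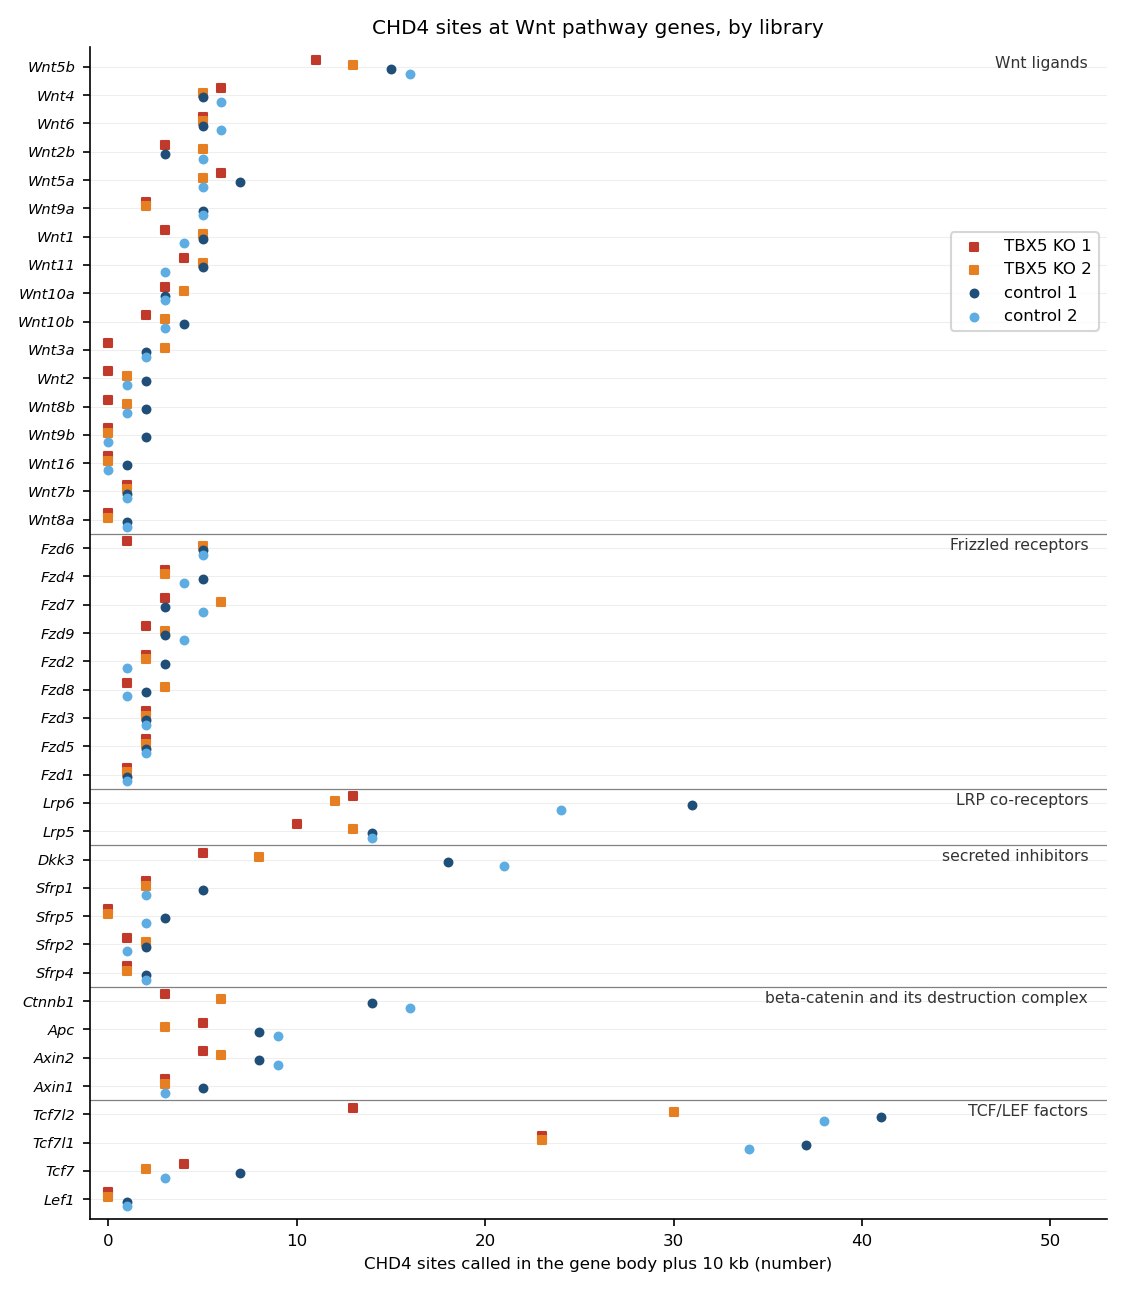
Number of CHD4 sites called in each library (horizontal axis) at the 41 members with a site, by class. Squares are the TBX5 KO libraries and circles the control libraries. At Dkk3, Ctnnb1 and Lrp6 both squares lie well left of both circles, while they mix at most ligands and Frizzled receptors.

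The Frizzled genes, which encode the receptors that Wnt ligands bind, had 1 control-only site among 19 sites of both control libraries. The 10 genes held 37 sites, with 17 and 27 called in TBX5 KO libraries, against 26 and 25 in control libraries, so the groups overlapped. The control-only share was 5.26% (interval 0.935% to 24.6%), against 24.2% over all gene regions. Of the 19 sites, 15 were called in all 4 (78.9%), against 57.3% over all gene regions. Within 1 kb of a gene end lay 11 of the 19, against 25.3% of the sites of both control libraries over all gene regions. All 11 were called in all 4, against 11461 of 13328 such sites over all gene regions. The control-only share of the class was 9 of 52 with the body plus 50 kb (17.3%), 3 of 18 by summits within 250 bp (16.7%), 2 of 13 at −log10 q of at least 5 (15.4%), 6 of 40 by nearest gene (15%) and 0 of 11 in the gene body alone. Over all gene regions these settings gave 24.1% to 27.0%. The pileup at the sites called in all 4 was lower all the same, with a median TBX5 KO level of 0.626 of the control level, against 0.643 over all gene regions, and lower in both TBX5 KO libraries at 13 of 15, against 88.6% over all gene regions.

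Fzd7 had 3 and 6 sites in TBX5 KO libraries, against 3 and 5 in control libraries. Its strongest, at the start of the gene and at chr1:59480449-59485931, had pileups of 96 and 122 in TBX5 KO libraries, against 183 and 152 in control libraries. The ratio over background was 0.550 and the groups did not overlap. The start of Fzd5, in chr1:64735681-64739417, had pileups of 95 and 134 in TBX5 KO libraries, against 168 and 139 in control libraries, a ratio of 0.626. The authors' folds over local background overlapped there, with 7.79 and 9.37 in TBX5 KO libraries, against 15.2 and 7.49 in control libraries. Fzd1 had 1 site, over the window printed above, with 85 and 95 fragments in TBX5 KO libraries, against 125 and 137 in control libraries. By the authors' folds over local background this site was not lower, with 6.66 and 6.66 in TBX5 KO libraries, against 6.63 and 6.21 in control libraries. Fzd4, a receptor known from retinal vessel growth, had 3 and 3 sites in TBX5 KO libraries, against 5 and 4 in control libraries, and no control-only site. Fzd6 had 1 and 5 sites in TBX5 KO libraries, against 5 and 5 in control libraries, a gap between the TBX5 KO libraries themselves. Fzd9 held the 1 control-only site of the family, with 39 and 35 fragments in control libraries, inside the neighbouring gene Baz1b. Its flanking site had the highest ratio of all members, 1.23, with 36 and 36 fragments in TBX5 KO libraries, against 28 and 22 in control libraries. Relative to background the groups overlapped there, and the control value of 22 lies close to the lowest callable 21.

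The co-receptor genes Lrp5 and Lrp6 differed from each other. Lrp6 had 13 and 12 sites in TBX5 KO libraries, against 31 and 24 in control libraries, while Lrp5 had 10 and 13 sites in TBX5 KO libraries, against 14 and 14 in control libraries. Control-only sites were 7 of 17 at Lrp6 (41.2%, interval 21.6% to 64.0%) and 1 of 11 at Lrp5 (9.09%, interval 1.62% to 37.7%). The intervals overlap. All 8 lay inside the genes. With lists of equal length the count for both genes was 3 of 20 (15%), against 13.4% over all gene regions.

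The strongest control-only site of any member was inside Lrp6, at chr6:134473000-134474192. It had no call in TBX5 KO libraries, where 22 and 26 fragments suffice at the genome background. Control libraries had 63 and 69 fragments there, 6.23 and 6.72 times the genome background. The authors' folds over local background were lower, 4.69 and 4.47 in control libraries. The site was the only control-only member site in the highest of 3 equal classes of control rank. Control rank is the mean percentile of −log10 p in the control lists. The other 6 at Lrp6 had 25 to 36 fragments in control libraries. With lists of equal length 2 control-only sites were counted at Lrp6. The Lrp6 site over the higher-coordinate gene end, chr6:134565122-134567752, was called in all 4, with 80 and 85 fragments in TBX5 KO libraries, against 141 and 106 in control libraries. The strongest site of the Lrp5 region, chr19:3572876-3577946, lay outside the body of Lrp5 and at an end of the neighbour Ppp6r3. It had 115 and 143 fragments in TBX5 KO libraries, against 227 and 245 in control libraries, a ratio of 0.463. The site over the higher-coordinate end of Lrp5 itself, chr19:3683385-3688428, was called in all 4. It had 74 and 98 fragments in TBX5 KO libraries, against 106 and 84 in control libraries, a ratio of 0.763 over background.

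The secreted inhibitor genes had the largest share of control-only sites of the 6 classes, and most of it came from Dkk3. The 8 genes held 37 sites, with 9 and 13 called in TBX5 KO libraries, against 30 and 28 in control libraries. Of the 22 sites of both control libraries, 11 were control-only (50%, interval 30.7% to 69.3%), 8 of them at Dkk3. Without Dkk3 the count was 3 of 7. With lists of equal length it was 7 of 14, against 13.4% over all gene regions. It was 16 of 44 with the body plus 50 kb (36.4%), 10 of 27 by nearest gene (37.0%) and 6 of 14 among sites in no other gene region (42.9%). Over all gene regions these shares were 24.2%, 24.8% and 26.2%. Dkk1, Dkk2 and Dkk4 had no site in any library, although the first of these is the best known LRP5 and LRP6 antagonist.

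Dkk3 encodes a DKK family protein that, unlike the classical members, is not an established LRP antagonist. It had 5 and 8 sites in TBX5 KO libraries, against 18 and 21 in control libraries, the groups far apart. In the control libraries peaks lay along the whole length of the gene, with gaps between them. Called peaks covered 7389 and 11521 bp of its region in TBX5 KO libraries, against 38179 and 37722 bp in control libraries, a ratio of 0.249, beside 0.570 for the Wnt genes together and 0.576 for all gene regions. The 8 control-only sites, of 15 sites in both control libraries, had 25 to 48 fragments in control libraries. The strongest of them, chr7:112161217-112162386, lay in the flank outside the gene and had 48 and 47 fragments in control libraries.

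The 5 Dkk3 sites called in all 4 libraries were narrower and lower in TBX5 KO libraries. The strongest, chr7:112135583-112142208, had 48 and 74 fragments in TBX5 KO libraries, against 128 and 111 in control libraries. Its peaks were 1718 and 2271 bp wide in TBX5 KO libraries, against 6347 and 5718 bp in control libraries. The ratio over background at the 5 sites was 0.401 to 0.608. The control-only count of Dkk3 was 8 at −log10 q of at least 3, 6 at 5, 6 with lists of equal length and 5 in the gene body alone. It was 19 without control replicate 1 and 16 without control replicate 2. Of the 8, 2 also lie in the region of the neighbour Usp47, and leaving them out gives 6.

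Sfrp5, which encodes a secreted Wnt-binding inhibitor, had no site in either TBX5 KO library, against 3 and 2 sites in control libraries. The site over the start of the gene, in the window printed above, had 30 and 32 fragments in control libraries, and the site chr19:42193366-42193735 had 31 and 39. Both also lie in the region of Zfyve27. Both are within reach of the lowest callable pileups of the TBX5 KO libraries, 22 and 26. Sfrp4 had 1 and 1 sites in TBX5 KO libraries, against 2 and 2 in control libraries. Sfrp1 had 2 and 2 sites in TBX5 KO libraries, against 5 and 2 in control libraries, and the site over its lower-coordinate end had 46 and 68 fragments in TBX5 KO libraries, against 75 and 45 in control libraries, where the groups overlap. Sfrp2 had 1 site called in all 4 libraries, with 29 and 39 fragments in TBX5 KO libraries, against 43 and 35 in control libraries.

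**Figure D3:**
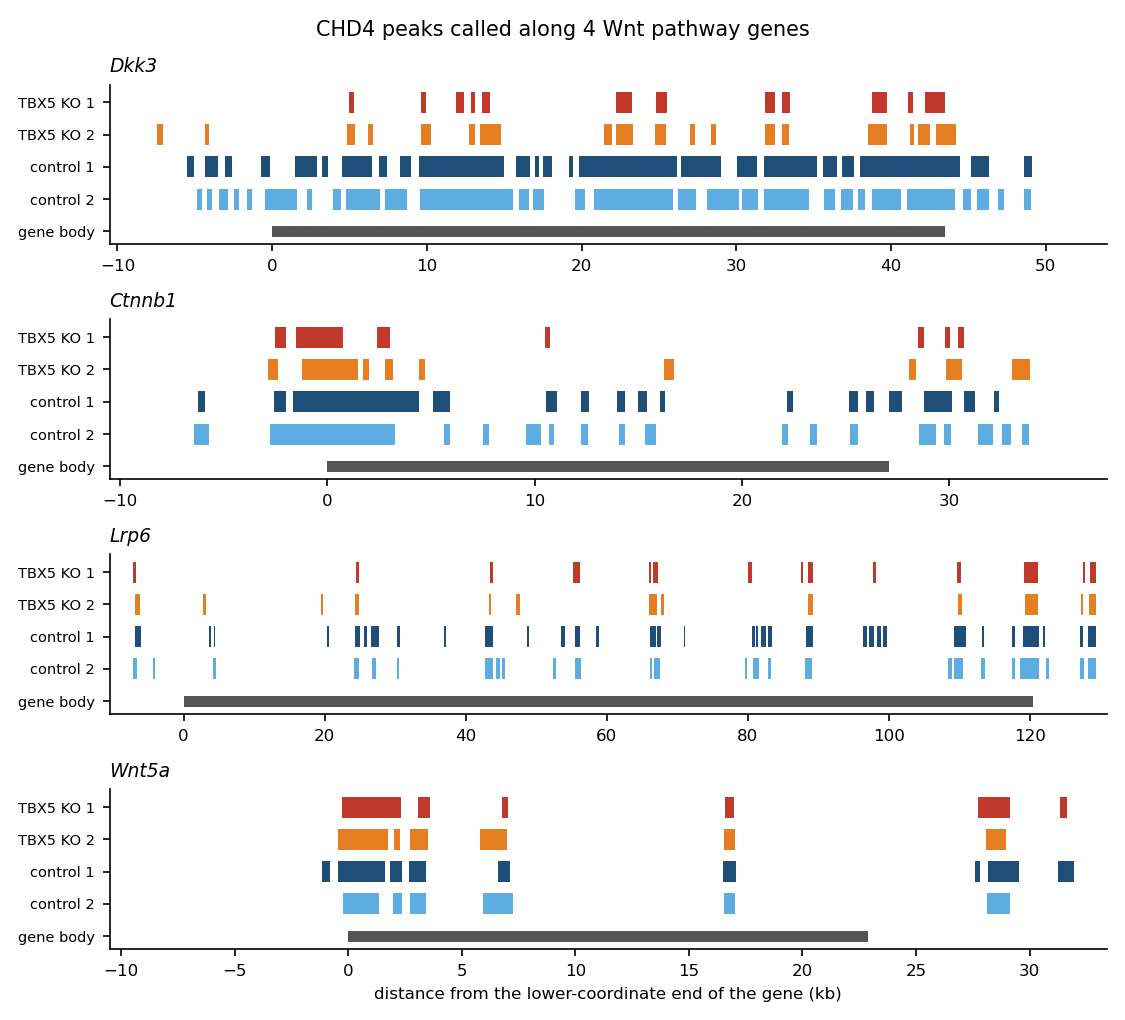
CHD4 peaks called along Dkk3, Ctnnb1, Lrp6 and Wnt5a in each library (horizontal axis, distance in kb from the lower-coordinate end of the gene; bars, called peaks; bottom bar, gene body). Over Dkk3 the bars cover 7389 and 11521 bp in TBX5 KO libraries, against 38179 and 37722 bp in control libraries, while Wnt5a shows nearly the same bars in all 4.

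At Ctnnb1, the gene of beta-catenin, the site at the start stayed in every library while small sites along the gene were called in control libraries alone. It had 3 and 6 sites in TBX5 KO libraries, against 14 and 16 in control libraries. Its start site, chr9:120930560-120937809, was the strongest of all members, with a mean percentile of 99.9 in the control lists. The pileup was 122 and 211 fragments in TBX5 KO libraries, against 282 and 244 in control libraries. The folds in the authors' lists were 9.52 and 14.7 in TBX5 KO libraries, against 23.5 and 16.2 in control libraries. The groups did not overlap on either measure, and the ratio over background was 0.526.

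At Ctnnb1, 7 of the 10 sites of both control libraries were control-only (70.0%, interval 39.7% to 89.2%), the highest share among members with at least 3 such sites. They were weak, with 23 to 43 fragments in control libraries. The strongest, chr9:120958542-120958988, had 37 and 43 fragments in control libraries and lies also in the region of Ulk4. At −log10 q of at least 3, and also with lists of equal length, the count was 1. It was 12 without control replicate 1.

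The destruction complex genes had 16 and 18 sites in TBX5 KO libraries together with Ctnnb1, against 35 and 37 in control libraries. Their 10 sites called in all 4 libraries were all lower in both TBX5 KO libraries relative to background, against 88.6% over all gene regions, with a median ratio of 0.610, against 0.643. The control-only count of this class was 4 of 17 with lists of equal length (23.5%), against 13.4% over all gene regions. At −log10 q of at least 5 the count was 9 of 17 (52.9%), against 27.0% over all gene regions. With the full lists and without Ctnnb1 it was 3 of 17 (17.6%). Ctnnb1 was left out because of its many control-only sites, so a lower share follows from the choice. Apc, a scaffold of the complex, had 5 and 3 sites in TBX5 KO libraries, against 8 and 9 in control libraries. Of its 7 sites of both control libraries, 3 were control-only, and the strongest had 48 and 50 fragments in control libraries. The Apc site over the lower-coordinate gene end had 54 and 93 fragments in TBX5 KO libraries, against 122 and 101 in control libraries.

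Axin2, both a scaffold of the complex and a widely used target gene of beta-catenin signalling, had 5 and 6 sites in TBX5 KO libraries, against 8 and 9 in control libraries. None of its 8 sites of both control libraries was control-only, but 5 were called in just 1 TBX5 KO library. A site inside the gene, chr11:108933537-108935679, had 29 fragments in TBX5 KO replicate 2 and no call in replicate 1, against 67 and 60 fragments in control libraries. The strongest Axin2 site, chr11:108919544-108923567, had 67 and 81 fragments in TBX5 KO libraries, against 112 and 106 in control libraries. At −log10 q of at least 3 the Axin2 count was 4 control-only sites, and at 5 it was 5. Axin1 had 3 and 3 sites in TBX5 KO libraries, against 5 and 3 in control libraries, and no control-only site.

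The TCF and LEF genes encode the DNA-binding partners of beta-catenin and held the most sites of any class, 109, nearly all at 2 long genes. They had 40 and 55 called sites in TBX5 KO libraries, against 86 and 76 in control libraries. Of the 62 sites of both control libraries, 11 were control-only (17.7%, interval 10.2% to 29.0%), 21 were called in 1 TBX5 KO library (33.9%, against 18.5% over all gene regions) and 30 in both. All 11 lay inside a gene and in the lowest of the 3 rank classes. With lists of equal length 2 of 37 were control-only (5.41%), against 13.4% over all gene regions.

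Tcf7l2, which spans 191863 bp, had 13 and 30 sites in TBX5 KO libraries, against 41 and 38 in control libraries. The TBX5 KO libraries differed from each other more than the control libraries did. Its 6 control-only sites had 25 to 41 fragments in control libraries, and the count was 20 without TBX5 KO replicate 2. The strongest was chr19:55781043-55782178, with 41 and 31 fragments in control libraries. The site at the start of Tcf7l2, chr19:55739893-55749343, had 118 and 152 fragments in TBX5 KO libraries, against 197 and 189 in control libraries, a ratio of 0.591. There the authors' folds over local background overlapped, with 10.2 and 9.92 in TBX5 KO libraries, against 9.36 and 10.2 in control libraries. One Tcf7l2 site, chr19:55870973-55871524, was called in TBX5 KO libraries alone, with 25 and 28 fragments at percentiles of 4.23 and 4.49 of their lists.

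Tcf7l1, which encodes the family member best known as a repressor and spans 162675 bp, had 23 and 23 sites in TBX5 KO libraries, against 37 and 34 in control libraries. Of its 28 sites of both control libraries, 4 were control-only, and the strongest, chr6:72680590-72682038, had 32 and 30 fragments in control libraries. A Tcf7l1 site called in all 4 libraries, chr6:72647139-72648477, had the lowest ratio over background of all member sites, 0.360. Its pileups were 31 and 35 in TBX5 KO libraries, against 71 and 85 in control libraries. Another Tcf7l1 site, chr6:72678502-72679191, was called in TBX5 KO libraries alone, with 27 and 30 fragments. Lef1 had 1 site in its 114061 bp, inside the gene, with no call in TBX5 KO libraries, against 25 and 30 fragments in control libraries. Tcf7 had 4 and 2 sites in TBX5 KO libraries, against 7 and 3 in control libraries. Per 100 kb of region, sites of the merged lists numbered 25.2 at Tcf7l1 and 26.0 at Tcf7l2, against 0.746 at Lef1, and the highest density was 46.7 at Ctnnb1.

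**Figure D4:**
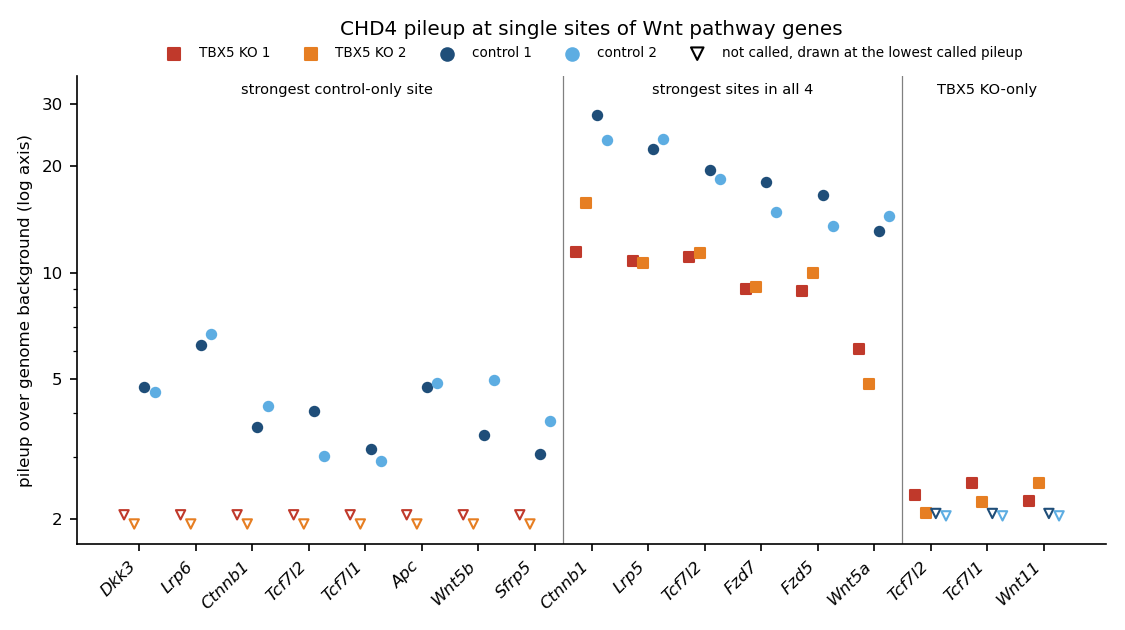
Pileup over genome background (vertical log axis) in each library at single member sites. Open triangles mark libraries with no call and stand at the lowest called pileup, 1.94 to 2.08 times background. The control-only site of Lrp6 reaches 6.23 and 6.72 in control libraries, and at the strongest sites called in all 4 libraries both TBX5 KO points lie below both control points.

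Place and strength in control went with the calls in TBX5 KO atria for members as for all genes. Control-only sites were 4 of 48 member sites within 1 kb of a gene end (8.33%), 36 of 134 inside a gene (26.9%) and 5 of 23 in the flanks (21.7%). Over all gene regions the shares were 7.07%, 30.9% and 24.3%. All 4 at gene ends lay in regions of the secreted inhibitors, but a gene end here can be that of a neighbour. The Sfrp5 site chr19:42193366-42193735 lay outside Sfrp5 and at an end of Zfyve27. In the lowest rank class, up to a control rank of 47.1, 33 of 83 member sites were control-only (39.8%), against 51.2% over all gene regions. In the middle class the count was 11 of 62 (17.7%), against 19.0%, and above a rank of 76.0 it was 1 of 60 (1.67%), against 2.30%. The median control rank of member sites was 55.3, and that of all gene-region sites was 61.9.

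Where CHD4 was still called in every library, its pileup was mostly lower in TBX5 KO atria, at members as over all gene regions. At 94 of the 116 member sites called in all 4 libraries both TBX5 KO libraries had a lower pileup over background than either control library (81.0%), against 88.6% over all gene regions. No member site was higher in both, against 0.582% over all gene regions. The median pileup over background at member sites was 3.65 and 3.73 in TBX5 KO libraries, against 5.78 and 5.21 in control libraries. The median ratio of TBX5 KO to control was 0.699 (quartiles 0.602 and 0.795), against 0.643 (0.557 and 0.752) over all gene regions. By class the median was 0.776 at the Wnt ligands, 0.695 at the LRP co-receptors, 0.673 at the TCF/LEF factors, 0.626 at the Frizzled receptors, 0.610 at beta-catenin and its complex and 0.608 at the secreted inhibitors. The ligands were lower in both TBX5 KO libraries at 22 of 33 sites and the secreted inhibitors at 6 of 9, of which 5 lay at Dkk3. At the other classes the counts were 16 of 19 for the LRP co-receptors, 27 of 30 for the TCF/LEF factors, 13 of 15 for the Frizzled receptors and 10 of 10 for beta-catenin and its complex. A site that fell below the threshold in 1 library is not in these medians.

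**Figure D5:**
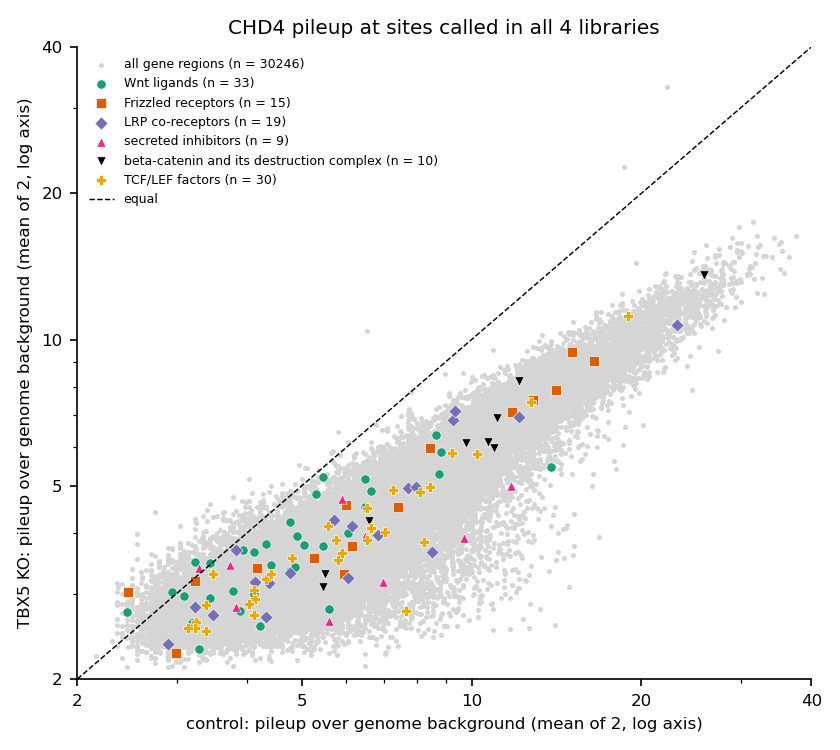
Pileup over genome background at sites called in all 4 libraries, as the mean of 2 TBX5 KO libraries (vertical log axis) against the mean of 2 control libraries (horizontal log axis). Grey points are all gene-region sites and coloured symbols the 116 member sites, most of which lie under the line of equal values, with a median ratio of 0.699.

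Other genes of the pathway, listed for this comparison, gave shares on both sides of the 24.2% of all gene regions. Of 59 such genes 56 had a site, and 102 of their 388 sites of both control libraries were control-only (26.3%). The genes of ligand secretion and of agonists had 16 of 42 (38.1%), with 6 at Znrf3, a ubiquitin ligase that removes Frizzled receptors, and 4 at Lgr6, a receptor for R-spondins. Non-canonical receptors and planar polarity genes had 48 of 160 (30%), with 11 at Daam1, a formin, and 10 at Ror2, a receptor for WNT5A. Nuclear partners had 13 of 49 (26.5%), with 4 at Ctnnbip1, whose product keeps beta-catenin from TCF factors. Other secreted or membrane inhibitors had 6 of 27 (22.2%), with 4 at Kremen1, a receptor for DKK proteins, and cytoplasmic components had 20 of 96 (20.8%), with 4 each at Gsk3b, the kinase that marks beta-catenin, and Apc2, a relative of Apc. Target genes of the pathway had 1 of 28 (3.57%), at Nkd1, a feedback inhibitor.

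The marker genes of atrial cardiomyocytes, the cells in which Nppa is active, had 25 control-only sites of 46 (54.3%), against 24.2% over all gene regions. Of the 25, 9 were at Bmp10, 6 at Myl4 and 6 at Gja5, while Nppa, Sln and Tnnt2 had 0. Their regions held 18 and 20 sites in TBX5 KO libraries, against 56 and 52 in control libraries. The shares were 5 of 42 at fibroblast markers (11.9%), 9 of 53 at endothelial markers (17.0%), 2 of 17 at smooth muscle markers (11.8%), 1 of 8 at epicardial markers (12.5%) and 5 of 11 at macrophage markers (45.5%). Summed sites were 32 and 36 in TBX5 KO libraries at fibroblast markers, against 51 and 52 in control libraries, and 41 and 42 at endothelial markers, against 69 and 66. They were 18 and 21 in TBX5 KO libraries at smooth muscle markers, against 25 and 21 in control libraries, 11 and 8 at epicardial markers, against 12 and 9, and 7 and 9 at macrophage markers, against 14 and 12. Adgre1, a defining macrophage gene, had no site. Whether the cells that carry CHD4 at the Wnt genes differ between members was not tested.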

How the data were processed

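CHD4 ChIP-seq peak lists of 4 libraries of mouse atria were used, 2 titled TBX5 KO and 2 titled control. The 4 input libraries have no peak list of their own and were not used. MACS2, DiffBind and build mm10 come from the submitters' processing notes, which state no versions. Aligner and call settings are not stated. Each deposited list gives for a peak a score, the fold (a ratio of pileup to local background), −log10 p and −log10 q, all the authors' values. The fold and −log10 p fix a whole-number pileup under the caller's Poisson model, which was recovered for 100% of peaks within a relative tolerance of 0.0001. The score was not used further. The lists give no read totals, so depth is known only through the genome background.

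Peaks overlapping by 1 bp were merged into sites and assigned to every autosomal protein-coding gene (RefSeq, GRCm38.p6) whose body plus 10 kb they overlapped. That table has no strand, so places are given by gene ends, and starts come from the promoter windows. Python 3.11.15, numpy 2.4.6, pandas 2.3.3, scipy 1.17.1 and matplotlib 3.10.9 were used, and recovery and merging were tested on simulated data. Alternatives changed the threshold, list length, overlap rule, gene region, groups, libraries and pairing. Members, lists and tests were chosen with earlier results of these data known. Named were the 12 members with the most sites, those with a TBX5 KO-only site, the 8 with the highest and 6 with the lowest control-only share among members with at least 3 sites in both control libraries, those without a site, and for sites the strongest control-only site of 8 members and the strongest sites called in all 4 of 6 members. Sfrp1, Sfrp2, Sfrp4, Sfrp5, Lef1, Tcf7, Fzd1, Wnt8a and further sites of named members were added after their values were seen.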

Additional observations from a re-analysis of the deposited data

How the results depend on the processing

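The control-only count of 45 stayed within 1.5 times under −log10 q of at least 3 or 5, an overlap of 50% of the shorter peak, summits within 250 bp, the gene body alone, the nearest gene and sites in no other gene region. It was 19 with lists of equal length, 95 with the body plus 50 kb, 3 with the groups exchanged and 23 without Ctnnb1, Dkk3 and Lrp6, and leaving out each library gave 59 to 124. The share of 22.0% was 28.8% at −log10 q of at least 5 (27.0% over all gene regions), 13.6% with lists of equal length, 2.42% with the groups exchanged, 14.1% without those 3 members and 28.5% to 40.5% when leaving out each library (30.2% to 40.9% over all gene regions). The TBX5 KO-only count of 3 was 0 at −log10 q of at least 3, 1 with an overlap of 50%, 9 by summits, 7 with the body plus 50 kb, 5 by nearest gene, 45 with the groups exchanged and 5 to 29 when leaving out each library. Members with a control-only site, 14, were 33 with the body plus 50 kb, 22 by nearest gene, 3 with the groups exchanged and 19 to 30 when leaving out each library. Members with fewer sites in both TBX5 KO libraries, 15, were 3 with lists of equal length, 28 with the body plus 50 kb, 0 with the groups exchanged and 16 to 26 when leaving out each library. For these counts of members the share of all genes was not computed under the alternatives.

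Same-numbered libraries are not stated to be paired. With the replicate block, sites called in the control and not in the TBX5 KO library of pair 1 or pair 2 numbered 153 and 110 (53.1% and 41.8%, beside 51.9% and 41.7% over all gene regions), and the reverse 14 and 41. Members with such a control site were 34 and 25, and members with fewer TBX5 KO sites were 32 and 19, again with no share of all genes computed. Of 303 recomputed values of single members, 178 stayed within 1.5 times and 125 did not, and the cause was not tested. The alternatives without 3 members and without shared sites were chosen after seeing the data. A site with no call may still be bound under the threshold, which limits every count.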
